A study of Homo sapiens with 18 samples.

Results

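The 10 genes described here code for the insulin-like growth factor (IGF) binding proteins IGFBP1 to IGFBP7, the receptors IGF1R and INSR, and the adaptor IRS2. They were taken by symbol from the 28277 genes of a count table, in which all 10 were found. The table covers RNA sequencing of OVCAR3-KRAB cells. OVCAR3, an established line, derives from an ovarian cancer, and KRAB stands for dCas9-KRAB, a nuclease-dead Cas9 joined to a domain that silences promoters. All 6 groups carry it. Cells with sgControl, a guide against the Gal4 promoter, were compared with cells with sgXIST7 or sgXIST9, guides to the promoter of XIST, the long noncoding RNA of X inactivation. Each of the 3 lines was sampled in normoxia and after 24 h of hypoxia (1% oxygen), with 3 replicates per group and 18 libraries in all. The knockdown lines are clones that had been selected for loss of XIST, and the study describes clones with the control guide as well. The effect of a guide and that of the clone thus cannot be told apart, for sgControl too. Whether the replicates of a guide came from 1 clone or from several is not given in the sources used here, so the p-values measure the spread between these samples.

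IGF1 and IGF2 are secreted growth factors that act mainly through IGF1R, and insulin acts mainly through INSR, a receptor tyrosine kinase of the same family. The receptors phosphorylate adaptors such as IRS1 and IRS2, which recruit PI3K and so activate AKT and mTOR. The IGF binding proteins are secreted proteins that hold IGFs in the extracellular fluid, carry them, and keep them from or bring them to the receptor. IGFBP3 is the main carrier in serum, IGFBP2 is abundant in many tumors and in ovarian cancer fluids, and IGFBP6 prefers IGF2. IGFBP1, IGFBP2 and IGFBP3 are known targets of hypoxia in several tissues.

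Of the 10 genes, 5 had enough reads to be tested (IGFBP2, IGFBP3, IGFBP6, IGF1R and INSR) and 5 did not (IGFBP1, IGFBP4, IGFBP5, IGFBP7 and IRS2). A gene was called when the edgeR adjusted p-value was under 0.01 and the absolute log2 fold change above 1, and "rose" and "fell" are used for called genes only. Levels are CPM, that is counts scaled to a common normalized library size, and are given for replicates 1, 2 and 3 in that order.

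The total count per library ranged from 11794375 to 24906936, so that 3 counts, taken as the detection limit, correspond to 0.13 to 0.266 CPM. XIST ranged from 242 to 867 CPM in sgControl normoxia and from 123 to 249 in sgControl hypoxia, from 0 to 0.259 in the 6 sgXIST7 libraries, and from 16.3 to 53.6 in the 6 sgXIST9 libraries. Of 8 known hypoxia-induced genes, 6 rose in hypoxia in sgControl, 7 in sgXIST7 and 7 in sgXIST9. The hypoxia libraries of replicate 3 deviated from their group means in the same direction in all 3 lines (r = 0.38 to 0.566 over the 14938 genes tested), and some results are also given without them. Of 10 markers of ovarian epithelial cancer cells, MUC16, KRT7, CDH1 and WFDC2 did not exceed 4 counts in any library, while EPCAM and KRT18 had group means from 140 to 243 CPM. KRT8 had group means from 4.41 to 34.7 CPM and PAX8 from 1.51 to 4.55, and those of WT1 and MSLN were at most 0.579. OVCAR3 cells are known to express MUC16, KRT7, CDH1 and WFDC2. The near absence of these 4 markers goes against the label, and the line is called OVCAR3-KRAB here only as labelled. The endothelial markers summed to at most 0.684 CPM, and of the leukocyte markers PTPRC and CD3E did not exceed 1 count whereas CD68 had group means from 16.1 to 46.3 CPM. The 5 fibroblast markers summed to 1.16 to 3.63 CPM in the sgControl libraries, 69.9 to 308 in sgXIST7 and 33.5 to 73.7 in sgXIST9. In the knockdown lines nearly all of this was COL1A2, and DCN, a defining fibroblast marker, had group means of at most 0.0993 CPM there. COL1A1 was also higher there, with group means of 2.06 to 5.21 CPM, beside 0.163 and 0.564 in sgControl. LUM and PDGFRB had group means of at most 0.356 CPM in any group. The part of other cell types in the differences between the lines was not tested.

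The sequences before the start sites of the 3 binding proteins that were measured well are shown, since these are the genes whose levels moved with oxygen or with the guide. RefSeq windows (GRCh38.p14) were found for 8 of the 10 genes, with none for IGFBP1 and IGFBP7. The core of the hypoxia response element, which HIF binds, was searched as ACGTG and GCGTG on both strands in the 250 bases before each start. Matches are in capitals. A CACGTG would count on both strands, and CACGC and CACGT are the same motifs on the other strand. The IGFBP3 window lies at chr7:45921273-45921522 on the minus strand. IGFBP2 has 3 annotated starts, of which the windows at chr2:216632578-216632827 and chr2:216633170-216633419, both on the plus strand, are shown. The first of them ends where the gene starts in the count table. The IGFBP6 window lies at chr12:53097417-53097666 on the plus strand.
IGFBP3: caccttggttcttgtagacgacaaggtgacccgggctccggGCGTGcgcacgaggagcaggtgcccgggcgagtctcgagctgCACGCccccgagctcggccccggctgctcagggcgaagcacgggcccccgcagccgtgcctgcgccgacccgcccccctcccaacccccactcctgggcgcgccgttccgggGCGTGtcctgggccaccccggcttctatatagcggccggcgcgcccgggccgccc
IGFBP2, outer start: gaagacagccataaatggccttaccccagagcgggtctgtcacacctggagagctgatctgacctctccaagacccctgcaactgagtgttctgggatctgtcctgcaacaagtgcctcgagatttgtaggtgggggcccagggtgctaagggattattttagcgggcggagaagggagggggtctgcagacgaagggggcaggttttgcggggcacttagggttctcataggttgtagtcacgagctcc
IGFBP2, inner start: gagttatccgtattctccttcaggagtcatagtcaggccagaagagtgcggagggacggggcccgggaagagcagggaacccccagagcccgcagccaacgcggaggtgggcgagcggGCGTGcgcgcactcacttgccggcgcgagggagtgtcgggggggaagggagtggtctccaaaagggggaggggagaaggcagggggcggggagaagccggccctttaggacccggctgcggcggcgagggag
IGFBP6: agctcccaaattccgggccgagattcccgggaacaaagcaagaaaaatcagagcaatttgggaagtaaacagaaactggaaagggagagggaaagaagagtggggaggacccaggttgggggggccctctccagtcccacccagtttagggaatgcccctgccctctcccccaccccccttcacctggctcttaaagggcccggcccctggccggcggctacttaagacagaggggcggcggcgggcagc
The IGFBP3 window held 3 matches, all GCGTG. The inner IGFBP2 window held 1, and the outer IGFBP2 and the IGFBP6 windows held 0. Of 35116 such windows of annotated starts, 43.2% held at least 1 match and 7.76% held 3 or more. The IGF1R window held 5 matches, and those of INSR, IGFBP4, IGFBP5 and IRS2 held 0. A match describes the letters in the window and not binding.

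IGFBP3 (chromosome 7, 45912245 to 45921272 in hg38, minus strand) had the most reads of the 10 genes and rose in hypoxia in all 3 lines. In sgControl its level was 167, 128 and 121 CPM in normoxia and 522, 442 and 689 CPM in hypoxia, which is 3.98-fold (log2 fold change 1.99, SE 0.335, edgeR adjusted p = 0.00011). In sgXIST7 it was 87.0, 24.6 and 52.6 CPM in normoxia and 664, 779 and 1110 CPM in hypoxia, 15.5-fold (log2 3.96, SE 0.364, adjusted p = 1.1e-07). In sgXIST9 it was 19.5, 18.1 and 18.2 CPM in normoxia and 465, 482 and 773 CPM in hypoxia, 30.8-fold (log2 4.94, SE 0.384, adjusted p = 2.4e-08). Every hypoxia library lay above every normoxia library. In each line the highest hypoxia value was that of replicate 3, and without these 3 libraries the log2 fold changes were 1.80, 3.73 and 4.67, all still called. In bulk RNA, fewer cells that express a gene and less of its RNA per cell cannot be told apart, here and for every gene that follows.

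**Figure D1:**
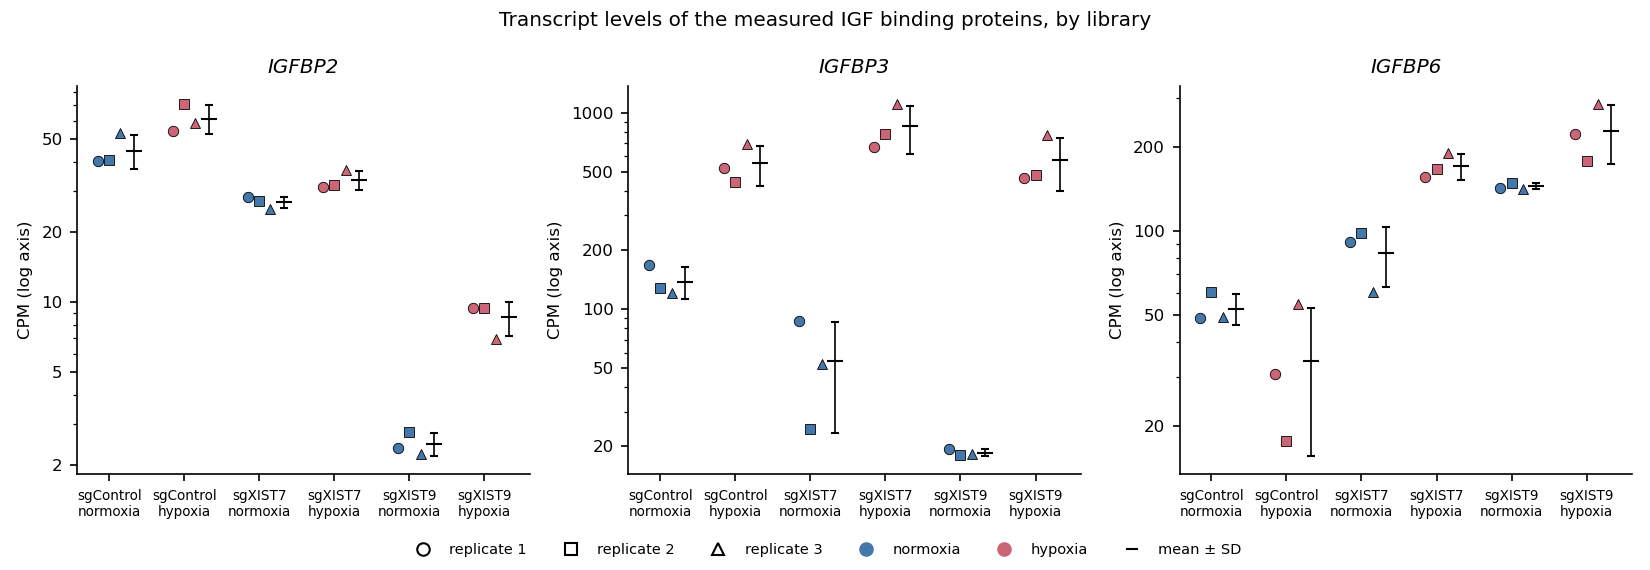
Level of IGFBP2, IGFBP3 and IGFBP6 in each library (CPM, log axis) by group, with blue points for normoxia, red points for hypoxia, a point shape for each replicate, and a black bar for the mean ± SD (n = 3). IGFBP3 is between 442 and 1110 CPM in all hypoxia libraries but spans 18.1 to 167 CPM in normoxia, whereas IGFBP2 is ordered by line. IGFBP6 is lowest in the sgControl groups, and its sgXIST7 hypoxia libraries lie above its sgXIST9 normoxia libraries.

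The lines differed in IGFBP3 in normoxia and not detectably in hypoxia. In normoxia the order was sgControl, sgXIST7 and sgXIST9, with means of 138 ± 25.0, 54.7 ± 31.2 and 18.6 ± 0.818 CPM (SD, n = 3) and no overlap between neighbors. IGFBP3 fell 7.43-fold in sgXIST9 against sgControl (log2 fold change -2.89, SE 0.353, edgeR adjusted p = 1e-05). In sgXIST7 the difference from sgControl was smaller and was called narrowly (log2 -1.34, SE 0.331, adjusted p = 0.007). That call was lost when any of 8 libraries was left out (sgControl normoxia 1, 2 or 3, sgXIST7 normoxia 2 or 3, and sgXIST9 normoxia 1, 2 or 3), with adjusted p from 0.0102 to 0.035, and the log2 fold change without sgXIST7 normoxia replicate 2 was -0.99. Between the knockdown lines IGFBP3 was higher in sgXIST7 (log2 1.56, adjusted p = 0.0061), a call that was lost without sgXIST7 normoxia 1 or 3 or any sgXIST9 normoxia library (log2 1.06 to 1.60, adjusted p 0.0158 to 0.0456). In hypoxia the library ranges of all 3 lines overlapped. The log2 difference from sgControl was 0.63 in sgXIST7 (95% confidence interval -0.05 to 1.31, adjusted p = 0.13) and 0.06 in sgXIST9 (-0.62 to 0.74, adjusted p = 0.91). The direction of the latter turned, to -0.03 without the hypoxia libraries of replicate 3, to -0.08 without sgControl hypoxia replicate 2 and to -0.22 without sgXIST9 hypoxia replicate 3.

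IGFBP2 (chromosome 2, 216632828 to 216664435, plus strand) was ordered by line at both oxygen levels, and the ranges of the 6 groups did not overlap between neighbors in the order. In sgControl its level was 40.2, 40.8 and 53.2 CPM in normoxia and 54.1, 71.1 and 58.7 CPM in hypoxia. In sgXIST7 it was 28.1, 27.2 and 25.1 CPM in normoxia and 31.2, 31.9 and 36.9 CPM in hypoxia. In sgXIST9 it was 2.37, 2.76 and 2.22 CPM in normoxia, from 38 to 53 reads a library, and 9.39, 9.44 and 6.94 CPM in hypoxia. All hypoxia libraries were thus above the normoxia libraries of the same line, but only sgXIST9 passed both limits, where IGFBP2 rose 3.51-fold (log2 fold change 1.81, SE 0.174, edgeR adjusted p = 2.2e-07). The log2 fold change was 0.45 in sgControl (adjusted p = 0.014) and 0.31 in sgXIST7 (adjusted p = 0.073).

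Against sgControl, IGFBP2 fell 18.2-fold in sgXIST9 in normoxia (log2 -4.19, SE 0.176, edgeR adjusted p = 1.9e-11) and 7.1-fold in hypoxia (log2 -2.83, SE 0.157, adjusted p = 9e-10). In sgXIST7 the log2 fold changes were -0.74 in normoxia (SE 0.145, adjusted p = 0.0012) and -0.88 in hypoxia (SE 0.145, adjusted p = 0.00015), past the p-value limit and short of the limit on the fold. Between the knockdown lines in normoxia IGFBP2 was 10.9-fold higher in sgXIST7 (log2 3.45, SE 0.173, adjusted p = 3.2e-10). The 4 comparisons with sgControl use the same sgControl libraries at each oxygen level. IGFBP2 was thus lowest in sgXIST9, the knockdown line that kept more XIST reads.

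IGFBP6 (chromosome 12, 53097667 to 53102340, plus strand) had the opposite order, with the mean highest in sgXIST9 and lowest in sgControl at both oxygen levels. In sgControl its level was 48.7, 60.3 and 49.1 CPM in normoxia and 30.6, 17.6 and 54.5 CPM in hypoxia. In sgXIST7 it was 91.2, 98.4 and 60.5 CPM in normoxia and 156, 167 and 191 CPM in hypoxia. In sgXIST9 it was 143, 149 and 142 CPM in normoxia and 224, 178 and 287 CPM in hypoxia. The hypoxia libraries were above the normoxia libraries in both knockdown lines, and in sgControl the ranges overlapped through replicate 3 in hypoxia. In hypoxia the ranges of sgXIST7 and sgXIST9 also overlapped.

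In hypoxia IGFBP6 was 5.05-fold higher in sgXIST7 than in sgControl (log2 fold change 2.34, SE 0.295, edgeR adjusted p = 1.1e-05) and 6.76-fold higher in sgXIST9 (log2 2.76, SE 0.299, adjusted p = 2.7e-06). In normoxia it was 2.75-fold higher in sgXIST9 (log2 1.46, SE 0.285, adjusted p = 0.0011), while the difference in sgXIST7 was not called (log2 0.66, adjusted p = 0.11). COL1A2, a collagen chain and the most abundant of the fibroblast markers, was also higher in both knockdown lines, with means of 0.275 and 0.213 CPM in sgControl, 96.7 and 189 in sgXIST7, and 49.2 and 45.5 in sgXIST9, for normoxia and hypoxia in turn. Its order between the knockdown lines was the reverse of that of IGFBP6. COL1A1, another collagen chain, had means of 0.564 and 0.163 CPM in sgControl, 2.79 and 2.06 in sgXIST7, and 2.25 and 5.21 in sgXIST9. DCN had means of 0.406 and 1.56 CPM in the sgControl groups and lower ones in the knockdown groups. The part of other cell types in the IGFBP6 difference was not tested.

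The hypoxia response of IGFBP6 depended on the libraries used. In sgXIST7 it rose 2.05-fold (log2 fold change 1.04, SE 0.28, edgeR adjusted p = 0.0043), close to both limits. The call was lost without sgXIST7 normoxia replicate 1 (adjusted p = 0.0103), normoxia replicate 3 (log2 0.85, adjusted p = 0.0283), hypoxia replicate 2 (adjusted p = 0.0106) or hypoxia replicate 3 (log2 0.96, adjusted p = 0.0164). In sgXIST9 the log2 fold change was 0.66 (adjusted p = 0.052). In sgControl it was -0.64 (adjusted p = 0.074), and without sgControl hypoxia replicate 3 it was -1.13 and called (adjusted p = 0.000945).

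The remaining binding proteins were at or near the detection limit. IGFBP4 (chromosome 17, 40443450 to 40457725) had 58 reads in all 18 libraries and at most 11 in a library. Its reads were 11, 4 and 11 in sgXIST7 normoxia, 2, 8 and 1 in sgXIST9 normoxia, and 0 in each of the 3 sgXIST9 hypoxia libraries. IGFBP5 (chromosome 2, 216672105 to 216695549), which lies next to IGFBP2 on the other strand, had 17 reads, of which 3, 4 and 7 were in sgXIST7 hypoxia. IGFBP7 (chromosome 4, 57030773 to 57110385) had 3 reads in all, and it shares exon bases with POLR2B and IGFBP7-AS1 on the other strand. IGFBP1 (chromosome 7, 45888488 to 45893659), the neighbor of IGFBP3 and a known target of hypoxia in liver, had 1 read in all 18 libraries. At this depth a level up to 0.13 to 0.266 CPM cannot be told from 0.

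Per transcript length, the summed level of the 7 binding proteins was 130 ± 5.62 CPM per kilobase in sgControl normoxia and 276 ± 65.3 in sgControl hypoxia (SD, n = 3). In sgXIST7 it was 122 ± 23.8 and 521 ± 110, and in sgXIST9 161 ± 4.14 and 464 ± 120, for normoxia and hypoxia in turn. Between the lines in normoxia, the make-up differed more than the sum. In normoxia IGFBP6 made up 42.8% of the summed level in sgControl, 71.8% in sgXIST7 and 94.8% in sgXIST9. IGFBP3 made up 40.3%, 17.1% and 4.39%, and IGFBP2 16.9%, 11% and 0.742%. In hypoxia IGFBP3 was the largest share in sgControl (76.1%) and sgXIST7 (61.6%), and in sgXIST9 it made up 46.7% beside 52.3% for IGFBP6. The library ranges of the IGFBP3 share in normoxia and hypoxia did not overlap in any line. IGFBP1, IGFBP4, IGFBP5 and IGFBP7 together made up at most 0.233% of the sum in any library.

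**Figure D2:**
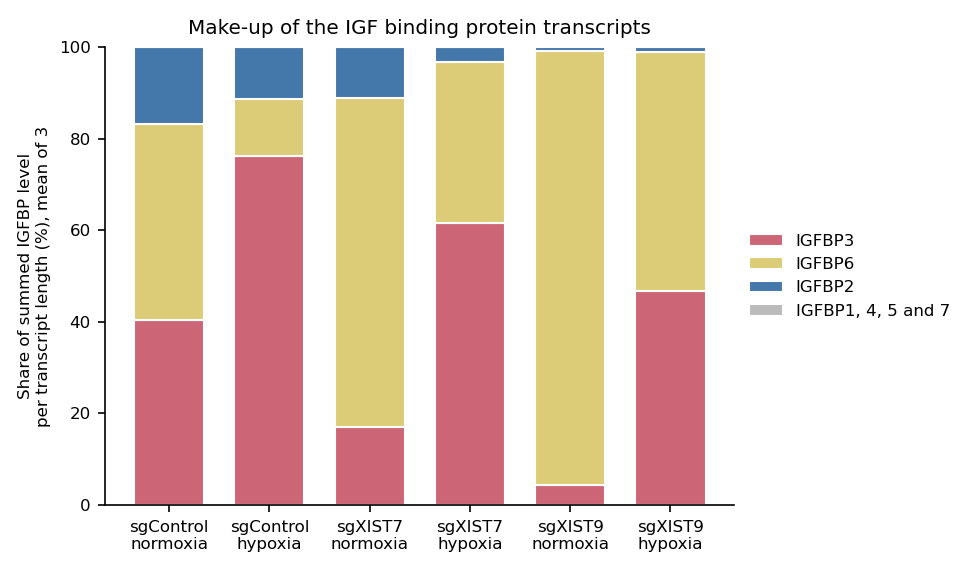
Mean share of each binding protein in the summed IGFBP level per transcript length (percent, stacked bars from 0 to 100, n = 3 libraries per group). The IGFBP3 share is 40.3% in normoxia and 76.1% in hypoxia in sgControl, 17.1% and 61.6% in sgXIST7, and 4.39% and 46.7% in sgXIST9, and the 4 low binding proteins are too small to be seen.

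INSR (chromosome 19, 7112265 to 7294414, minus strand), the insulin receptor, was measured well in every library. In sgControl it was 30.9, 33.9 and 32.5 CPM in normoxia and 30, 31.4 and 30.3 CPM in hypoxia. In sgXIST7 it was 27.2, 31.7 and 26.3 CPM in normoxia and 34.2, 35.9 and 37.3 CPM in hypoxia. In sgXIST9 it was 30, 29.0 and 28.3 CPM in normoxia and 47.4, 46.6 and 53.1 CPM in hypoxia. The sgXIST9 hypoxia libraries were above all others, while in normoxia the sgXIST7 range overlapped those of the other lines and the sgXIST9 range lay just below that of sgControl.

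INSR was not called in any of the 10 comparisons, because no fold reached the limit. The log2 fold change in hypoxia was -0.09 in sgControl (95% confidence interval -0.29 to 0.12, edgeR adjusted p = 0.49), 0.33 in sgXIST7 (0.13 to 0.54, adjusted p = 0.0071) and 0.75 in sgXIST9 (0.55 to 0.96, adjusted p = 5.8e-06). The last of these is 1.69-fold. In hypoxia sgXIST9 was 1.6-fold above sgControl (log2 0.68, adjusted p = 4.9e-05). In normoxia the log2 differences from sgControl were -0.19 in sgXIST7 (-0.4 to 0.01) and -0.16 in sgXIST9 (-0.36 to 0.05). These intervals bound the change in normoxia well within the limit on the fold.

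IGF1R (chromosome 15, 98648539 to 98964530, plus strand), a receptor through which IGFs act, had 160 reads in all 18 libraries. It shares exon bases with IRAIN on the other strand. Since the strand setting of the counting is not given in the sources used here, reads of the overlap cannot be assigned with certainty. Its reads were 5, 6 and 7 in sgControl normoxia and 13, 36 and 10 in sgControl hypoxia, the group through which it passed the filter on low counts. They were 4, 8 and 3, then 7, 12 and 4 in sgXIST7, and 2, 0 and 6, then 11, 16 and 10 in sgXIST9, for normoxia and hypoxia in turn. In every line the mean in hypoxia was the higher one, and the ranges overlapped in sgXIST7. The log2 fold change in hypoxia was 1.56 in sgControl (SE 0.557, edgeR adjusted p = 0.027), 0.78 in sgXIST7 (SE 0.628, adjusted p = 0.3) and 2.1 in sgXIST9 (SE 0.657, adjusted p = 0.012), and none was called. The sgXIST9 value became called without sgXIST9 normoxia replicate 3 (log2 3.51, adjusted p = 0.00169) or without sgControl hypoxia replicate 2 (adjusted p = 0.00999), and in a fit with the replicate number as a block (log2 2.07, adjusted p = 0.00929). None of the 4 differences between the knockdown lines and sgControl was called either.

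Per kilobase of transcript, INSR was at 3.0 to 5.18 CPM in the group means and IGF1R at 0.012 to 0.0949. IGF2R, the mannose-6-phosphate receptor that takes up IGF2 without signaling through the insulin receptor route, was at 6.3 to 11.2. Of these receptors, IGF1R thus had the lowest level per length in every group.

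**Figure D3:**
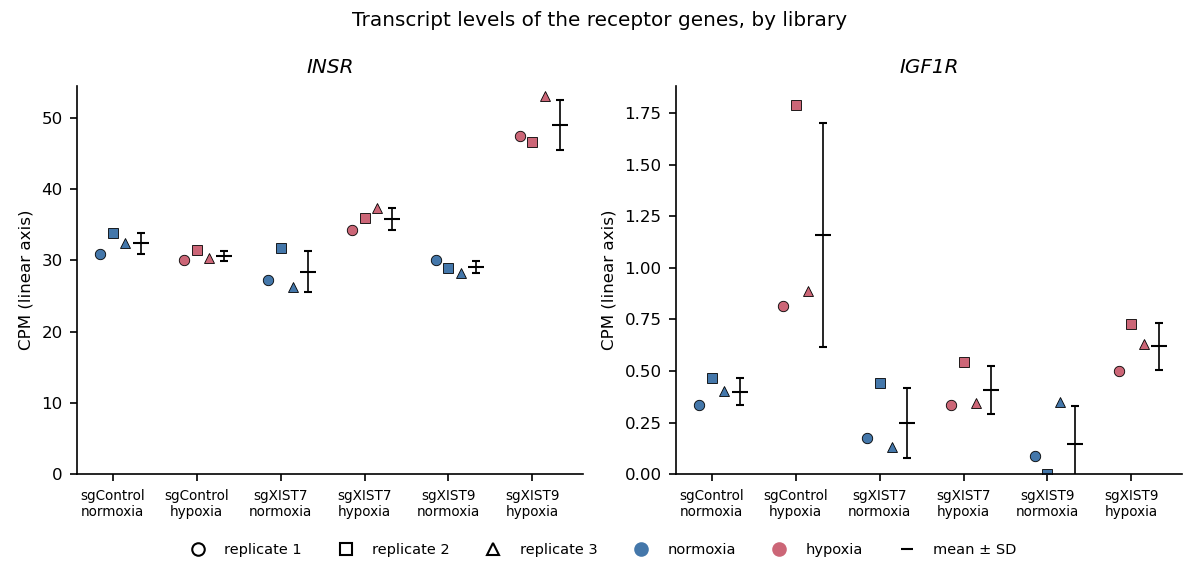
Level of INSR and IGF1R in each library (CPM, linear axis from 0, with a different scale in each panel) by group, with points for libraries and black bars for the mean ± SD (n = 3). INSR lies between 26.3 and 37.3 CPM outside sgXIST9 hypoxia, where it reaches 46.6 to 53.1 CPM, and IGF1R stays at or under 1.79 CPM.

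IRS2 (chromosome 13, 109752695 to 109786583, minus strand), an adaptor of both receptors, had 16 reads in all 18 libraries. Of these, 5, 6 and 1 were in the 3 sgXIST9 hypoxia libraries, and no other library had more than 1. It was not tested.

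In the comparison of hypoxia with normoxia, 1 of the 5 tested genes was called in sgControl (IGFBP3), 2 in sgXIST7 (IGFBP3 and IGFBP6) and 2 in sgXIST9 (IGFBP2 and IGFBP3), all of them higher. Of all 14938 genes tested, 19.7%, 27.3% and 23.3% were called in these comparisons, so that 1 or 2 of 5 is near the background. Against sgControl in normoxia, 1 of 5 was called in sgXIST7 (IGFBP3) and 3 of 5 in sgXIST9 (IGFBP2, IGFBP3 and IGFBP6), beside 7.76% and 7.70% of all genes. Against sgControl in hypoxia, 1 was called in sgXIST7 (IGFBP6) and 2 in sgXIST9 (IGFBP2 and IGFBP6), beside 14.0% and 9.53%. Between sgXIST7 and sgXIST9 in normoxia 2 were called (IGFBP2 and IGFBP3), beside 3.40%. IGF1R passed the filter only through its hypoxia reads in sgControl, so these counts are a description of the genes with reads and not of all 10.

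**Figure D4:**
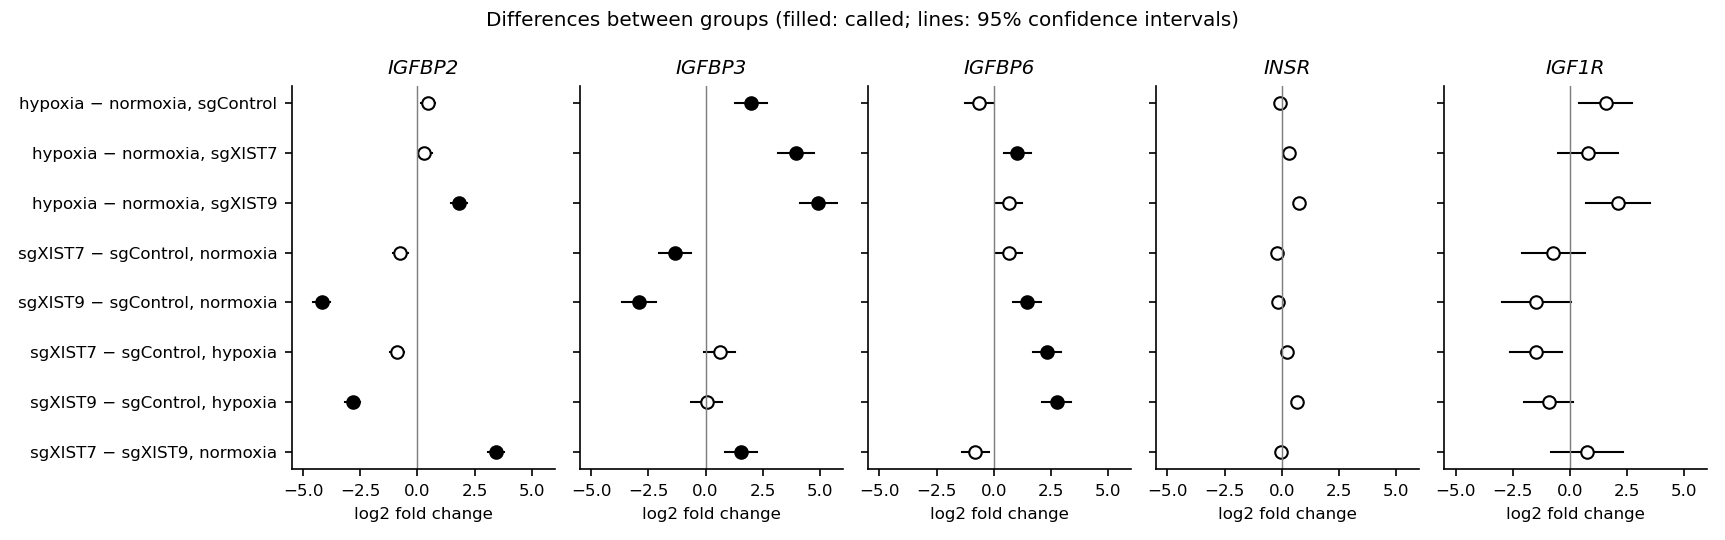
Log2 fold change of the 5 tested genes in 8 comparisons, with points for the estimate, filled where called, and lines for the 95% confidence interval. IGFBP3 lies at 1.99, 3.96 and 4.94 for hypoxia, IGFBP2 at -4.19 and -2.83 for sgXIST9 against sgControl, and INSR stays within 0.75 of 0 in all 8.

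By edgeR on all 18 libraries, a difference from sgControl in the hypoxia response itself was called in sgXIST9 only. IGFBP3 responded more in sgXIST9 than in sgControl by 2.95 on the log2 scale (SE 0.471, edgeR adjusted p = 0.0022), and IGFBP2 by 1.36 (SE 0.225, adjusted p = 0.0029). These were 2 of 5 tested genes, beside 1.01% of all genes. The IGFBP3 call was lost without sgControl hypoxia replicate 2 (log2 2.81, adjusted p = 0.0104) or with no filter on low counts (log2 2.96, adjusted p = 0.0105). The IGFBP2 call was lost without sgXIST9 normoxia replicate 1 (adjusted p = 0.0139) or 3 (adjusted p = 0.0133) or hypoxia replicate 1 (adjusted p = 0.0106), with log2 values of 1.29 to 1.33. With only the groups compared in the fit, the IGFBP2 call was also lost (log2 1.36, adjusted p = 0.0135). For IGFBP3 the levels reached in hypoxia overlapped between the lines, and the levels in normoxia did not. INSR also differed, by 0.84 (SE 0.138, adjusted p = 0.0027), under the limit on the fold.

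For sgXIST7 against sgControl, 0 of the 5 genes were called for a difference in the hypoxia response by edgeR, beside 1.52% of all genes. Of the 5, 3 had an unadjusted edgeR p under 0.05, and 2 were called by DESeq2. The shares of all genes under those other criteria are not given here. The log2 differences were 1.97 for IGFBP3 (SE 0.462, edgeR adjusted p = 0.016) and 1.67 for IGFBP6 (SE 0.401, adjusted p = 0.017), which are the 2 that DESeq2 called (DESeq2 adjusted p = 0.000732 and 0.00149). IGFBP3 was also called by edgeR without sgControl hypoxia replicate 3 (adjusted p = 0.00775) or sgXIST7 normoxia replicate 1 (adjusted p = 0.0053), and IGFBP6 without sgControl hypoxia replicate 3 (log2 2.18, adjusted p = 0.000287). The IGFBP6 difference for sgXIST9 was 1.3 (adjusted p = 0.067), and 1.8 and called without that same library (adjusted p = 0.0013).

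The rest of the IGF and insulin pathway was described through 56 genes listed by role, of which 47 were tested. In hypoxia 14 of the 47 were called in sgControl (11 higher and 3 lower), 19 in sgXIST7 (13 and 6) and 16 in sgXIST9 (14 and 2). These are 29.8%, 40.4% and 34.0% of the list, beside 19.7%, 27.3% and 23.3% of all genes tested. The median log2 fold change of the 47 was 0.16, 0.66 and 0.3 in these lines, beside 0.02, 0.01 and 0.09 over all genes. The genes of the ligands were not transcribed above the detection limit, since IGF1 had at most 3 reads in a library, IGF2 at most 1 and INS 0. The cells were grown in medium with serum, which brings such factors.

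Downstream of the receptors, the receptor inhibitor GRB10 moved with both oxygen and line. The adaptor GAB1 moved with oxygen, and differed from sgControl by a call only in sgXIST9 normoxia. GRB10, which binds INSR and IGF1R and dampens their signal, rose in hypoxia by 1.32, 1.96 and 2.78 on the log2 scale in sgControl, sgXIST7 and sgXIST9 (edgeR adjusted p of 4.2e-05 or less). It was also lower in sgXIST7 (log2 -2.84 in normoxia and -2.2 in hypoxia) and in sgXIST9 (-4.1 and -2.64) than in sgControl. Its group means were 18.5 and 46.1 CPM in sgControl, 2.58 and 10.0 in sgXIST7, and 1.09 and 7.35 in sgXIST9. Against sgControl, GAB1 was lower in sgXIST9 normoxia (log2 -2.75, edgeR adjusted p = 1.3e-07), with means of 1.6 and 10.8 CPM. The log2 difference was -0.74 in sgXIST9 hypoxia, with means of 16.8 and 28.3 CPM. In sgXIST7 it was -0.63 in normoxia and -0.16 in hypoxia. GAB1 rose by 1.39, 1.86 and 3.39 in hypoxia, and its response in sgXIST9 exceeded that in sgControl by 2.01 (SE 0.298, adjusted p = 0.0014). It was the 1 listed gene so called in sgXIST9 (2.13%, beside 1.01% of all genes), where 6 were called without sgControl hypoxia replicate 3, 3 without sgXIST9 hypoxia replicate 3, and 2 without sgXIST7 hypoxia replicate 1 or 3 or sgXIST9 hypoxia replicate 2. With DESeq2 or no filter 4 were called, with a replicate block 3, and with a mean CPM of at least 1 as filter 2. Without the replicate 3 hypoxia libraries 6 were called. The shares of all genes in these other fits are not given here.

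IRS1, the adaptor related to IRS2, was lower in both knockdown lines. Its group means were 3.06 and 5.76 CPM in sgControl, and at most 0.621 CPM in the knockdown groups. In sgXIST9 normoxia all 3 libraries had 0 reads, which makes it at least 19.6-fold lower than in sgControl. In hypoxia the log2 fold change against sgControl was -3.19 in sgXIST7 (edgeR adjusted p = 0.00051) and -3.67 in sgXIST9 (adjusted p = 0.00026). SHC1, an adaptor that leads to the MAP kinases, rose in hypoxia in sgXIST7 (log2 1.64, adjusted p = 3.9e-07), and its response there exceeded that in sgControl by 1.8 (SE 0.235, adjusted p = 0.00041). It was the 1 listed gene so called in sgXIST7 (2.13%, beside 1.52% of all genes), where 6 were called without sgControl hypoxia replicate 3 and 2 without sgXIST7 hypoxia replicate 1 or sgXIST9 hypoxia replicate 2 or 3. With DESeq2 3 were called there, and without the replicate 3 hypoxia libraries 4. The shares of all genes in these other fits are not given here. The 3 hypoxia means of SHC1 were 350 CPM in sgControl, 993 in sgXIST7 and 701 in sgXIST9.

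Of the proteins that carry an IGFBP-like domain, CRIM1, a membrane protein, was lower in the knockdown lines (log2 -3.28 in normoxia and -3.17 in hypoxia in sgXIST7). In sgXIST9 normoxia it had 0, 2 and 1 reads, beside a mean of 5.77 CPM in sgControl normoxia. CCN2, a matrix protein also known as connective tissue growth factor, rose in hypoxia by 3.98, 2.33 and 2.78 on the log2 scale. CCN1, its relative, was lower in sgXIST9 than in sgControl by -2.12 in normoxia and -3.39 in hypoxia. It was also lower in sgXIST7 hypoxia (log2 -1.28), a call lost in 4 of the 18 fits that left out 1 library. Against sgControl in hypoxia, KAZALD1 (log2 1.69) and HTRA1 (log2 1.61) were higher in sgXIST9. There 4 of the 6 tested genes listed as other binding proteins were called (2 higher and 2 lower, 66.7%), beside 9.53% of all genes. In sgXIST7 normoxia, sgXIST7 hypoxia and sgXIST9 normoxia 2 of 6 were called (33.3%), beside 7.76%, 14.0% and 7.70%.

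Of the 9 inhibitors of the receptors or adaptors, all tested, 5 were called in hypoxia in each line (4 higher and 1 lower in sgControl and sgXIST9, 3 and 2 in sgXIST7), which is 55.6%, beside 19.7%, 27.3% and 23.3% of all genes in sgControl, sgXIST7 and sgXIST9. In sgXIST9 the 5 became 3 without sgXIST9 normoxia replicate 1 or 2. Of the 4 FOXO factors, 2, 3 and 4 rose in these lines, but the call of FOXO6 in sgXIST9 (adjusted p = 0.0096) was lost in 11 of the 18 fits that left out 1 library and in 5 of 6 other alternatives. Of the 17 genes of PI3K, AKT and mTOR, 2, 5 and 3 were called (11.8%, 29.4% and 17.6%). The 2 in sgControl became 1 without sgControl hypoxia replicate 2. The 5 in sgXIST7 became 2 without sgXIST7 normoxia replicate 2, and 3 without sgXIST7 hypoxia replicate 1 or 3. They also became 3 without the replicate 3 hypoxia libraries or with only the groups compared in the fit. DDIT4, an inhibitor of mTORC1, rose by 3.19, 2.56 and 3.19 on the log2 scale, and FOXO3, a transcription factor that AKT holds out of the nucleus, by 1.6, 2.2 and 1.48. FOXO4 rose by 3.09, 2.42 and 3.5. SOCS2, which dampens growth hormone and IGF signals, fell by 2.94, 3.06 and 2.1 on the log2 scale (edgeR adjusted p of 2.1e-08 or less). MTOR itself fell in sgXIST7 (log2 -1.04) and sgXIST9 (log2 -1.08), calls close to the limit on the fold. The former was lost without sgXIST7 normoxia replicate 2 or hypoxia replicate 1, and the latter without sgXIST9 hypoxia replicate 2. Against sgControl in normoxia, 7 of the 47 were called in sgXIST7 (1 higher and 6 lower) and 7 in sgXIST9 (0 and 7), 14.9% each, beside 7.76% and 7.70% of all genes. The 7 in sgXIST7 became 3 without sgXIST7 normoxia replicate 1 or 2, and 4 without sgXIST7 normoxia replicate 3 or sgControl normoxia replicate 2, and the 1 that was higher, CCN2, was lost in 16 of the 18 fits that left out 1 library. In hypoxia 14 were called in sgXIST7 (4 higher and 10 lower) and 10 in sgXIST9 (5 and 5), 29.8% and 21.3%, beside 14.0% and 9.53%. The 14 became 9 without sgControl hypoxia replicate 2, and with only the groups compared in the fit the 14 and 10 became 6 and 5. Between the knockdown lines in normoxia 5 were called (10.6%, beside 3.40%), and 3 without sgXIST7 normoxia replicate 2 or sgXIST9 normoxia replicate 1 or 3. Without the replicate 3 hypoxia libraries 8 were called.

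The genes most alike in pattern were found by Pearson correlation of log2 CPM over the 18 libraries among 10710 tested genes with a mean of at least 100 counts. The 18 points fall into 6 groups that all genes share, so the values are a description. Nearest to IGFBP3 were CFDP1 (r = 0.977), STX7 (r = 0.976) and MORC3 (r = 0.973), with a smaller range than IGFBP3, as the CFDP1 means of 23.1 to 79.7 CPM show. Nearest to IGFBP2 were AASS (r = 0.984), ZNF518B (r = 0.964) and NREP (r = 0.949), of which ZNF518B had a mean of 69.6 CPM in sgControl normoxia and 1.02 in sgXIST9 normoxia. Nearest to IGFBP6 were NAP1L1 (r = 0.965), EML2 (r = 0.955) and SIGIRR (r = 0.953).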

How the data were processed

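RNA-seq of 18 libraries in 6 groups of 3 was analyzed. The authors depleted ribosomal RNA, sequenced stranded paired-end libraries, trimmed reads with Trimmomatic, checked them with FastQC, used HISAT2 for alignment to the hg38 build, and took gene counts from featureCounts. Versions and the strand setting are not given in the sources used here. The deposited values are these counts, whole numbers without normalization, beside the gene length that the counting gave. Of 28279 lines, 2 broken lines were left out. The study's own tests used DESeq2.

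The 10 genes, the pathway and marker lists and the thresholds were chosen with earlier results of these data known. Counts were tested with edgeR 4.0.16 (limma 3.58.1, R 4.3.3), TMM normalization (factors 0.859 to 1.115), filterByExpr (minimum count 10, minimum total 15), and the quasi-likelihood fit with robust estimation in 1 fit of 6 groups, with Benjamini-Hochberg adjustment over all 14938 genes kept, in 10 comparisons. The common dispersion was 0.0321 and the prior count 0.125. Confidence intervals are at 95%. Standard errors were taken from the fold change and its F statistic. Scripts were tested on simulated data. Limits of detection cover counting error only, at 3 counts per library. Per-kilobase levels divide CPM by the listed length. Genes outside the 10 are named if listed by role and called in at least 1 comparison, as markers or checks, or as the 3 most alike in pattern to each of the 3 members with the largest range of group means. Ligands and untested genes are given by their counts. Alternatives were DESeq2 1.42.0, median-of-ratios scaling, no filter, a mean CPM of at least 1, a fit of only the groups compared, a replicate block, an adjusted p under 0.05, no limit on the fold, and each library left out. A fit without the hypoxia libraries of replicate 3 was added after seeing the data.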

Additional observations from a re-analysis of the deposited data

Results flagged for a closer look

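The hypoxia response of 2 genes differed between sgXIST9 and sgControl by a test of the difference itself. IGFBP3 responded more in sgXIST9 by 2.95 on the log2 scale (edgeR adjusted p = 0.0022), with a rise of 4.94 in sgXIST9 and 1.99 in sgControl. IGFBP2 responded more by 1.36 (edgeR adjusted p = 0.0029), with 1.81 in sgXIST9 and 0.45 in sgControl. In both cases all 3 hypoxia libraries were above all 3 normoxia libraries in each line, which does not measure the difference between lines. The IGFBP3 call was lost without sgControl hypoxia replicate 2 or with no filter. The IGFBP2 call was lost without sgXIST9 normoxia replicate 1 or 3 or hypoxia replicate 1, or with only the groups compared. In sgXIST7 the IGFBP3 response exceeded that in sgControl by 1.97, called by DESeq2 and not by edgeR (edgeR adjusted p = 0.016).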

How the results depend on the processing

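Over the 5 tested genes and 10 comparisons, 1275 of 1336 recomputed fold changes kept their direction and their side of the limits, 31 lost a call, 25 gained one and 5 turned direction. IGFBP3 in sgXIST9 against sgControl in hypoxia was -0.03 without the hypoxia libraries of replicate 3, a choice made after seeing the data, and ranged from -0.22 to 0.25 with 1 library left out. INSR in sgXIST7 against sgXIST9 in normoxia ranged from -0.12 to 0.02, and the IGF1R difference of hypoxia response for sgXIST9 from -0.01 to 1.95, with 1 library left out. The called genes numbered 1 in hypoxia in sgControl and became 2 without the replicate 3 hypoxia libraries or at an adjusted p under 0.05, with 1 to 2 when 1 library was left out. In hypoxia in sgXIST7 they became 1 with no filter or without the replicate 3 hypoxia libraries, with 1 to 2 when 1 library was left out. For sgXIST7 against sgControl in normoxia they became 0 with no filter, with only the groups compared or without the replicate 3 hypoxia libraries, became 2 with no limit on the fold, and were 0 to 1 when 1 library was left out. For sgXIST7 against sgControl in hypoxia they became 2 at an adjusted p under 0.05 or with no limit on the fold. For sgXIST7 against sgXIST9 in normoxia they became 1 with no filter, with only the groups compared or without the replicate 3 hypoxia libraries, and were 1 to 2 when 1 library was left out. For the difference of hypoxia response they became, in sgXIST7, 2 with DESeq2, 1 with a replicate block, 1 without the replicate 3 hypoxia libraries and 2 at an adjusted p under 0.05, and 0 to 2 when 1 library was left out. In sgXIST9 they became 1 with no filter or with only the groups compared, and were 1 to 3 when 1 library was left out. The causes were not tested.

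The replicate numbers were not taken as a pairing, since the labels name no shared batch and only 15 of 45 pairs with the same number had a correlation of deviations over 0.1 (range -0.0727 to 0.566). Still, 16 of 18 libraries correlated best with their own number, a hint from the data and not the design. With the replicate block, IGF1R gained a call in hypoxia in sgXIST9 (log2 2.07, edgeR adjusted p = 0.00929). IGFBP3 gained a call in the difference of hypoxia response between sgXIST7 and sgControl (log2 2.04, edgeR adjusted p = 0.00832). No call of a binding protein or receptor gene was lost with it. Pathway calls over all comparisons were 98 in place of 94. Over the other alternatives pathway calls ranged from 73 to 110. Genes under 3 counts per library cannot be compared at this depth.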
